A study of Mus musculus with 6 samples.

Results

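Nes, Nefm and Stmn4 are the 3 genes described here, out of 1653 genes listed in every library. They were chosen by gene name, as genes of the neural cytoskeleton, with earlier results of these data known. The libraries, 3 Yaf2KO and 3 wild type, hold RNA of mouse embryonic stem cells, which are self-renewing cells derived from the early embryo. All cells carry the strain label C57BL/6 and grew in serum and leukemia inhibitory factor on mouse embryonic fibroblasts inactivated with mitomycin-C. The Yaf2KO cells were made with Cas9, and the labels do not say whether they come from 1 clone or several. YAF2 is a subunit of variant Polycomb repressive complexes 1, and the study's title names expression regulation by Yaf2 as its subject.

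Intermediate filaments and microtubules give a cell its shape, and the filament proteins change as neural cells mature. Nestin, encoded by Nes, is the intermediate filament protein of dividing neural progenitors and is also made by other immature cells, among them muscle precursors and mesenchymal cells. As progenitors become neurons, nestin gives way to the neurofilaments, of which Nefm encodes the medium subunit. Stmn4 encodes a stathmin of the nervous system, a protein that binds tubulin dimers and destabilises microtubules in growing neurites. The comparison therefore sets a progenitor filament gene (Nes) beside a pair of neuronal genes (Nefm and Stmn4).

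Without scaling, Nes and Stmn4 had more reads in every Yaf2KO library than in any wild-type library, a separation found in 65.2% of the tested genes; Nefm had more in Yaf2KO 1 and 2 only. Relative to the other listed genes, Nes lay near the middle (log2 fold change -0.13, SE 0.43), whereas Nefm (2.15, SE 0.92) and Stmn4 (1.63, SE 0.69) lay near the top, but none of the 3 genes passed the test (edgeR quasi-likelihood, Benjamini-Hochberg adjusted p = 0.95 for each), which 0.798% of tested genes did. Stmn4 had a higher ratio to Nes in all 3 Yaf2KO libraries than in any wild-type library, a separation found in 7.73% of the tested genes other than Nes, Stmn4 included. In Yaf2KO 1 scaled Stmn4 lay inside the wild-type range, and scaled Nes lay below it. After scaling, Nefm was lowest in Yaf2KO 3, where Stmn4 was highest.

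Nes (ENSMUSG00000004891) spans 87971078 to 87980451 on the plus strand of chromosome 3 in mm10. Nefm (ENSMUSG00000022054) spans 68082590 to 68124846 on the minus strand of chromosome 14, and Stmn4 (ENSMUSG00000022044) spans 66344296 to 66361680 on the plus strand of the same chromosome, 1.72 Mb from Nefm. All 3 positions are identical in GENCODE vM21, which gives 6416 exonic bases for Nes, 5782 for Nefm and 1916 for Stmn4. No other gene overlaps Nes or Stmn4. The long Nefm annotation runs over Nefl, the gene of the light neurofilament subunit on the opposite strand, and 1108 of its exonic bases are also exonic in Nefl. Nefl was not analysed here and no strand setting is stated, so reads from those bases cannot be assigned with certainty to Nefm. The counts are sums over whole genes and do not tell exons or isoforms apart.

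Polycomb complexes act largely at promoters rich in CpG, so the promoter of Nes is shown with each CpG in capitals. It was the 1 member of the 3 found in the RefSeq promoter table (GRCm38.p6), at chr3:87970843-87971142, plus strand, a window that holds the start of the gene.
Nes: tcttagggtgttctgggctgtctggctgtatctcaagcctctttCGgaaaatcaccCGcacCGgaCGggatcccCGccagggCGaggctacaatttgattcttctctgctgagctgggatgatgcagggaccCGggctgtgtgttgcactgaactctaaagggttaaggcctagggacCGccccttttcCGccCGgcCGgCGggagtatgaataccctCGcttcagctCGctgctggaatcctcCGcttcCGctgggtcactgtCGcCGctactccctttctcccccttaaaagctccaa
The window holds 18 CpG dinucleotides in 300 bases, against a median of 7 over the 32851 promoters of that length in the table, of which 29.7% hold at least as many. CG reads the same on both strands, and no binding was measured here.

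Library depth was not used here, because the files list a part of each library. The listed genes summed to between 143682 and 451075 counts in Yaf2KO libraries and to between 56367 and 72975 counts in wild-type libraries, and 1524 of the 1653 genes had more reads in the 3 Yaf2KO libraries together. The transcript of the targeted gene, Yaf2, was not analysed here. The Yaf2KO libraries differed more from one another than the wild-type libraries did, with a biological coefficient of variation of 0.602 in Yaf2KO and 0.326 in wild type. Nanog, a gene of pluripotent cells, had 20052, 8710 and 2816 counts in Yaf2KO 1, 2 and 3, against 2239, 1750 and 2756 in wild type 1, 2 and 3. Relative to the other listed genes, its log2 fold change was -0.09 (SE 0.33).

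Nes had 1889, 3046 and 1507 raw counts in Yaf2KO 1, 2 and 3, against 705, 672 and 537 in wild type 1, 2 and 3. The groups did not overlap, and the mean was 3.37 times higher in Yaf2KO (2147 ± 801 in Yaf2KO and 638 ± 89.0 in wild type, SD, n = 3 each). Stmn4 had 152, 312 and 224 counts in Yaf2KO 1, 2 and 3, against 16, 35 and 14 in wild type 1, 2 and 3. These groups did not overlap either, and the mean was 10.6 times higher in Yaf2KO (229 ± 80.1 in Yaf2KO and 21.7 ± 11.6 in wild type, SD, n = 3 each).

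Nefm had 279, 175 and 5 counts in Yaf2KO 1, 2 and 3, against 10, 6 and 3 in wild type 1, 2 and 3. Yaf2KO 3 lay within the wild-type range, while Yaf2KO 1 and 2 were far above it. The mean was 24.2 times higher in Yaf2KO, but the spread between its libraries was almost as large as the mean (153 ± 138 in Yaf2KO and 6.33 ± 3.51 in wild type, SD, n = 3 each).

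A separation of this kind in raw counts was common. Every Yaf2KO library exceeded every wild-type library in 27.4% of all listed genes and in 65.2% of the 376 genes with enough reads to be tested. The raw separation of Nes and Stmn4 is therefore a property that most tested genes share. With all libraries taken as equally deep, edgeR called Nes (log2 fold change 1.75, adjusted p = 0.0265), Nefm (4.57, adjusted p = 0.0188) and Stmn4 (3.40, adjusted p = 0.0152) higher in Yaf2KO, along with 75.7% of the 415 genes tested in that way.

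The libraries were then scaled on the listed genes, so that values are in CPM, the usual unit for counts divided by a library's scaled sum, here over the listed genes alone, and a log2 fold change of 0 marks the typical listed gene. Nes had 3891, 12015 and 11360 CPM in Yaf2KO 1, 2 and 3, against 10521, 11597 and 7751 CPM in wild type 1, 2 and 3. Yaf2KO 2 lay above every wild-type library, Yaf2KO 3 lay inside their range, and Yaf2KO 1 lay below all of them, at 1.33 log2 units under the wild-type mean (log2 difference -1.33). The group means were 9089 ± 4513 CPM in Yaf2KO and 9956 ± 1984 CPM in wild type (SD, n = 3 each), a difference smaller than the spread within either group.

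Stmn4 had 313, 1231 and 1689 CPM in Yaf2KO 1, 2 and 3, against 239, 604 and 202 CPM in wild type 1, 2 and 3. Yaf2KO 2 and 3 lay above every wild-type library, and Yaf2KO 1 lay between wild type 1 and wild type 2. The group means were 1077 ± 700 CPM in Yaf2KO and 348 ± 222 CPM in wild type (SD, n = 3 each).

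Nefm had 575, 690 and 37.7 CPM in Yaf2KO 1, 2 and 3, against 149, 104 and 43.3 CPM in wild type 1, 2 and 3. Here Yaf2KO 1 and 2 stood above every wild-type library and Yaf2KO 3 was the lowest library of all. The 5 reads in Yaf2KO 3 correspond to 12.2 to 88.0 CPM and the 3 reads in wild type 3 to 8.93 to 127 CPM (exact 95% Poisson intervals, counting error only), so these low values could not be told apart at this depth. The group means were 434 ± 348 CPM in Yaf2KO and 98.7 ± 53.1 CPM in wild type (SD, n = 3 each). On this scale 6.12% of tested genes had every Yaf2KO library above every wild-type library, and none of Nes, Nefm and Stmn4 was among them.

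**Figure D1:**
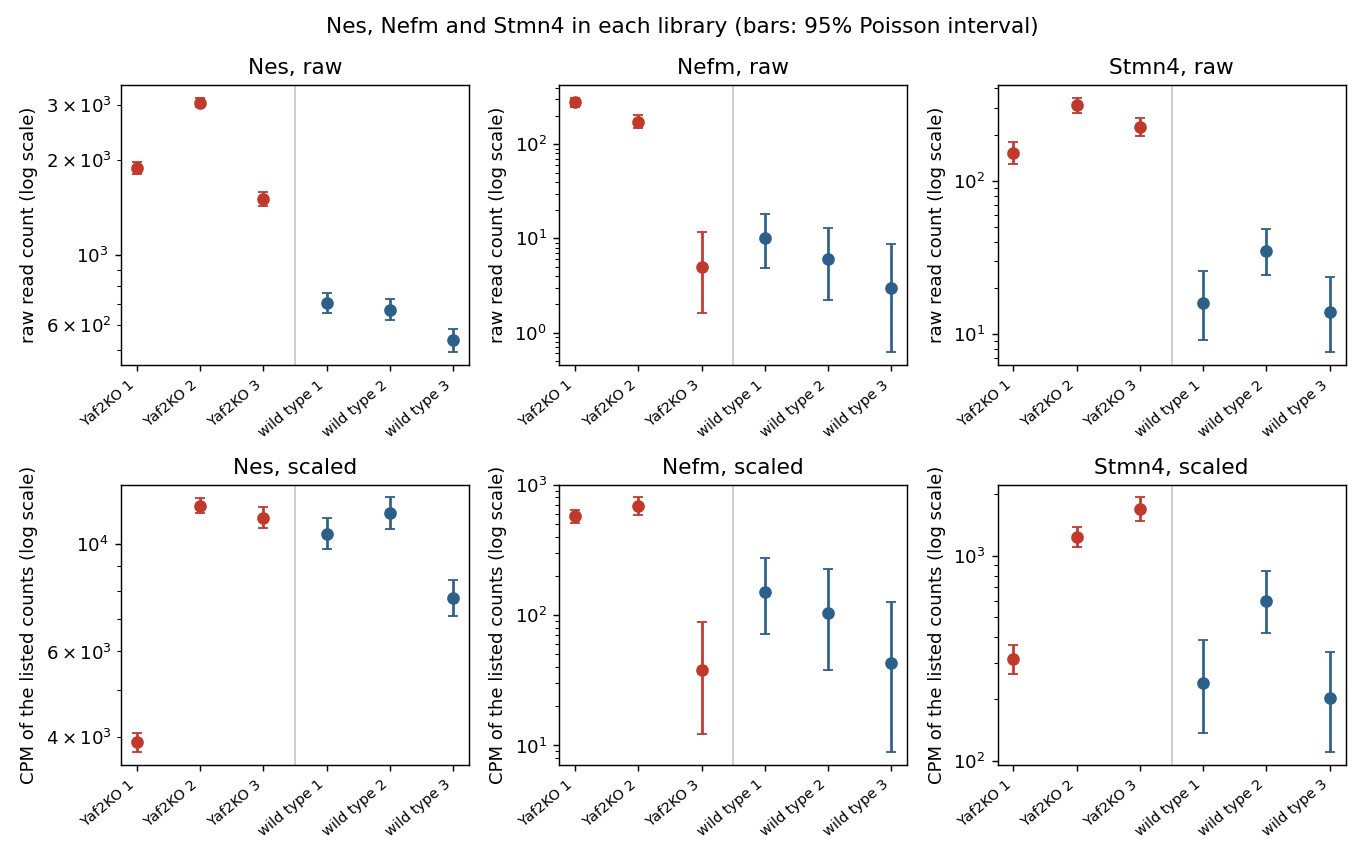
Raw read counts (top row) and scaled CPM of the listed counts (bottom row), each on a log axis, for Nes, Nefm and Stmn4 in Yaf2KO 1 to 3 (red) and wild type 1 to 3 (blue), with exact 95% Poisson intervals as bars. Nes is lowest in Yaf2KO 1 after scaling (3891 CPM), Nefm in Yaf2KO 3 (37.7 CPM), and Stmn4 is near the wild-type values in Yaf2KO 1 (313 CPM).

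Compared per kilobase of exon, the 3 genes kept 1 order in every library, with Nes highest, then Stmn4, then Nefm. The lengths take all annotated exons of a gene together, 5782 bases for Nefm, with the 1108 shared with Nefl included. In Yaf2KO 1 Nefm had more reads than Stmn4 (279 against 152), so the order there depends on these lengths. The scaled level of Nes was 1417 ± 703 CPM per kb in Yaf2KO and 1552 ± 309 CPM per kb in wild type. That of Stmn4 was 562 ± 366 CPM per kb in Yaf2KO and 182 ± 116 CPM per kb in wild type, and that of Nefm was 75.1 ± 60.2 CPM per kb in Yaf2KO and 17.1 ± 9.19 CPM per kb in wild type (SD, n = 3 each). Over the Yaf2KO libraries the ranges of Nes (606 to 1873 CPM per kb) and Stmn4 (163 to 881) overlapped. Over the wild-type libraries they did not (1208 to 1808 for Nes and 105 to 315 for Stmn4). Those of Stmn4 and Nefm did not overlap in either genotype (6.52 to 119 in Yaf2KO and 7.49 to 25.8 in wild type for Nefm).

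The fit over all 376 tested genes gave 3 calls, Lef1, Csn3 and Wnt8a, all higher in Yaf2KO, which is 0.798% of the genes, and 0 calls lower in Yaf2KO. At an unadjusted p under 0.05, 15 genes (3.99%) were higher in Yaf2KO, Nefm and Stmn4 among them, and 1 was lower. Nefm had a log2 fold change of 2.15 (SE 0.92, 95% interval 0.11 to 4.19, unadjusted p = 0.0404, adjusted p = 0.95 by edgeR) and ranked 11 of 376 by fold change; 2 of 3 Yaf2KO libraries were above every wild-type library. Stmn4 had a log2 fold change of 1.63 (SE 0.69, 95% interval 0.09 to 3.17, unadjusted p = 0.0395, adjusted p = 0.95 by edgeR) and ranked 14; again 2 of 3 Yaf2KO libraries were above every wild-type library. Nes had a log2 fold change of -0.13 (SE 0.43, 95% interval -1.09 to 0.83, unadjusted p = 0.766, adjusted p = 0.95 by edgeR) and ranked 215, close to the median tested gene (-0.03). The 3 genes thus had no call, and the fitted values of Nefm and Stmn4 were large but imprecise.

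**Figure D2:**
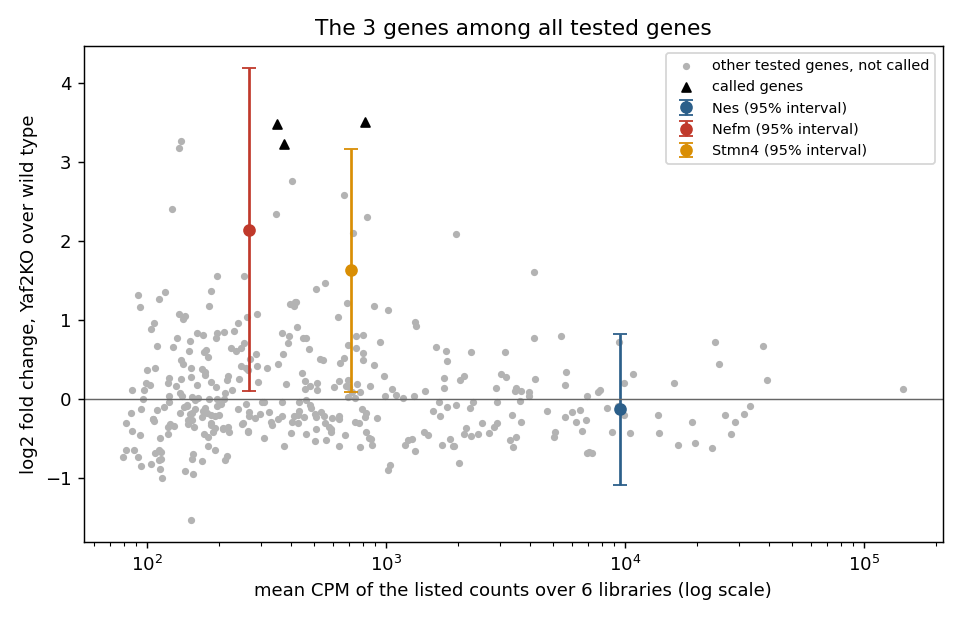
Log2 fold change of Yaf2KO over wild type (vertical) against mean CPM of the listed counts on a log axis (horizontal) for the 376 tested genes, with 95% intervals for Nes, Nefm and Stmn4. Nes (-0.13) lies in the band of most genes, Nefm (2.15) and Stmn4 (1.63) lie above it, and their intervals reach down to 0.11 and 0.09.

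Single libraries moved these values. Without Yaf2KO 1, Stmn4 was called at 2.06 on the log2 scale (SE 0.52; edgeR adjusted p = 0.0337, where 2.59% of 347 tested genes were called higher), and with any other library left out it was not. The adjusted p of Stmn4 ranged from 0.0337 to 1.0 over the 6 fits with 1 library left out. Nefm had its smallest adjusted p without Yaf2KO 3, at 2.69 on the log2 scale (SE 0.56; edgeR adjusted p = 0.0681). It passed with all libraries when no low-count filter was used (2.47, SE 0.70, adjusted p = 0.0474 by edgeR, where 0.916% of 1638 genes were called higher). In that fit the SE of Nefm was smaller than the 0.92 of the main fit. Other genes moved up as well, Nanog from -0.09 to 0.26 and Nes from -0.13 to 0.14. Nes changed the sign of its small value without Yaf2KO 1 (0.22, SE 0.33) and without wild type 2 (0.11, SE 0.56).

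**Figure D3:**
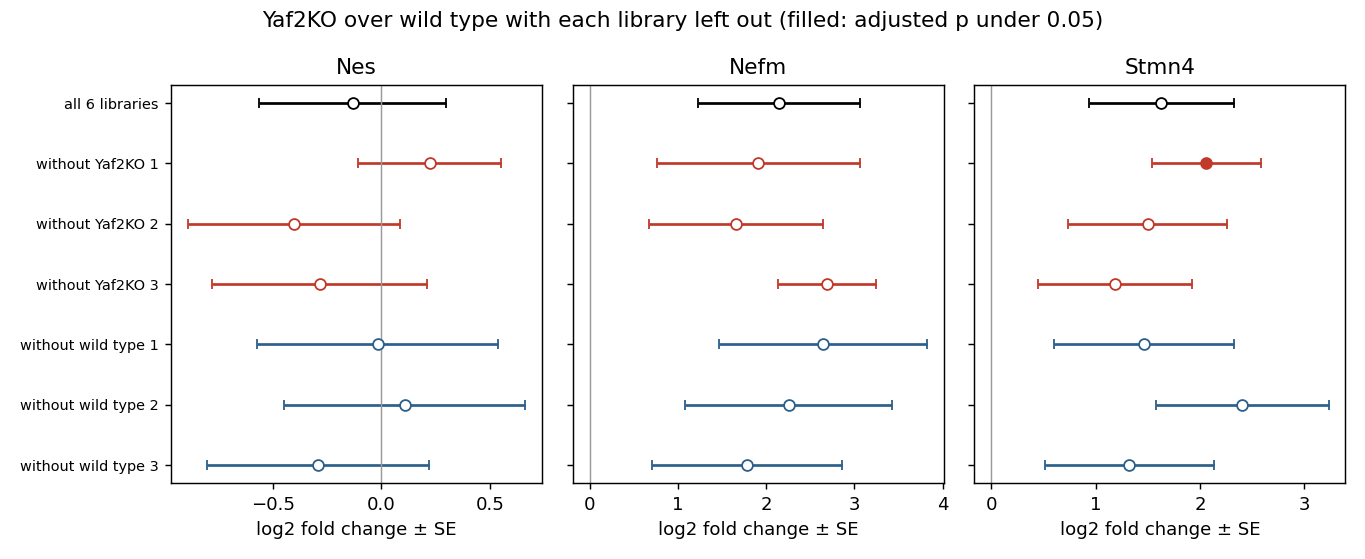
Log2 fold change of Yaf2KO over wild type with its SE (horizontal; each panel has its own scale) for Nes, Nefm and Stmn4, with all 6 libraries and with each library left out in turn; filled symbols mark an adjusted p under 0.05. Nefm stays between 1.66 and 2.69 and Stmn4 between 1.18 and 2.40, with Stmn4 filled without Yaf2KO 1 alone, while Nes lies on both sides of 0.

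Ratios between the genes within a library need neither depth nor scaling. For every 100 reads of Nes, Yaf2KO 1, 2 and 3 had 8.05, 10.2 and 14.9 reads of Stmn4, against 2.27, 5.21 and 2.61 in wild type 1, 2 and 3. All 3 Yaf2KO libraries lay above all 3 wild-type libraries. In Yaf2KO 1, however, scaled Stmn4 was close to its wild-type mean (log2 difference 0.02), while scaled Nes was under its own (-1.33). Relative to the listed genes, the higher ratio in that library thus went with low Nes and not with raised Stmn4. This reading depends on the scaling. In raw counts Yaf2KO 1 was above every wild-type library for both genes (1889 reads of Nes and 152 of Stmn4). The mean log2 ratio was -3.22 ± 0.45 in Yaf2KO and -4.96 ± 0.63 in wild type (SD, n = 3 each), a difference of 1.74 log2 units or 3.33-fold. The exact two-sided permutation test gave p = 0.1, which is the smallest value that 3 libraries against 3 allow, and p = 0.3 after adjustment over the 3 ratios compared. Of the 375 tested genes other than Nes, Stmn4 included, 7.73% had a ratio to Nes that was separated in the same direction, and Stmn4 ranked 14 of 375 by the size of the difference.

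For every 100 reads of Nes there were 14.8, 5.75 and 0.332 reads of Nefm in Yaf2KO 1, 2 and 3, against 1.42, 0.893 and 0.559 in wild type 1, 2 and 3. Yaf2KO 1 and 2 lay above every wild-type library and Yaf2KO 3 below. The share of Nefm in the reads of the pair was 0.331% in Yaf2KO 3 (exact Clopper-Pearson 95% interval 0.107 to 0.770%) and 0.556% in wild type 3 (0.115 to 1.61%), which overlap, whereas it was 12.9% in Yaf2KO 1 (11.5 to 14.4%). The mean log2 ratio was -4.99 ± 2.78 in Yaf2KO and -6.68 ± 0.60 in wild type (SD, n = 3 each), a difference of 1.68 log2 units (exact two-sided permutation p = 0.4, adjusted p = 0.6). Without Yaf2KO 3 the difference was 3.24 and without Yaf2KO 1 it was 0.57.

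The ratio of Nefm to Stmn4 varied widely among the Yaf2KO libraries. For every 100 reads of Stmn4, Yaf2KO 1, 2 and 3 had 184, 56.1 and 2.23 reads of Nefm. Wild type 1, 2 and 3 had 62.5, 17.1 and 21.4. These are reads not corrected for length. Per kilobase of all annotated exons, Stmn4 was above Nefm in every library. The range within Yaf2KO enclosed all wild-type values, and the mean log2 ratio was nearly the same (-1.77 ± 3.22 in Yaf2KO and -1.72 ± 0.94 in wild type, SD, n = 3 each; difference -0.05, exact two-sided permutation p = 1.0). With 1 library left out this difference ran from -1.37 without Yaf2KO 1 to 1.74 without Yaf2KO 3. The equal means rest on Yaf2KO libraries that lie far apart in opposite directions.

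**Figure D4:**
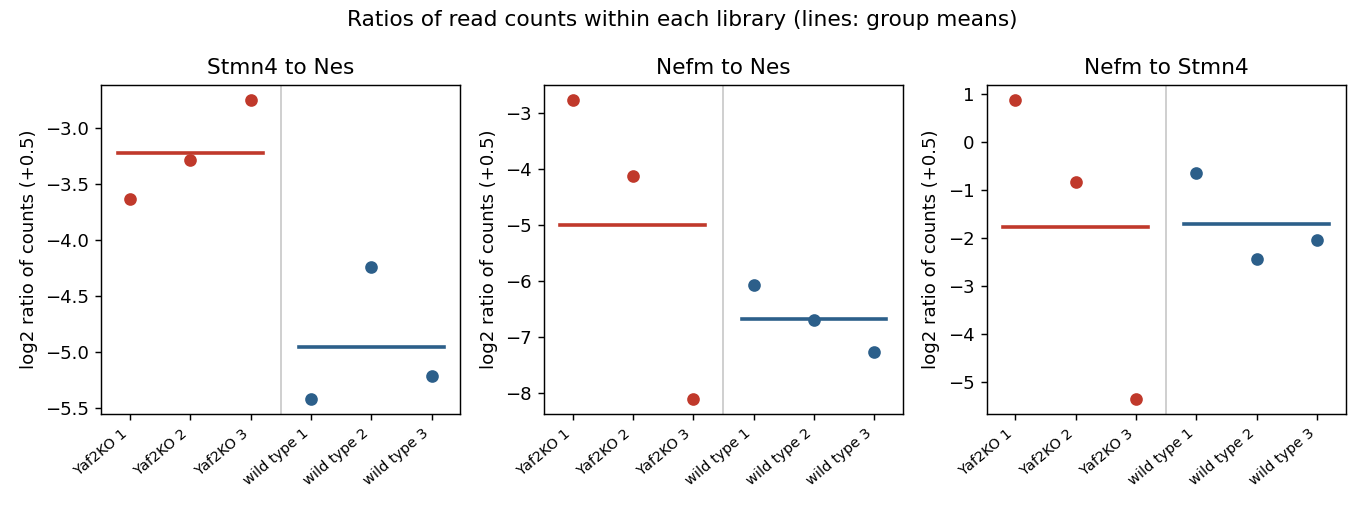
Log2 ratio of read counts, with 0.5 added to each count, for Stmn4 to Nes, Nefm to Nes and Nefm to Stmn4 in Yaf2KO 1 to 3 (red) and wild type 1 to 3 (blue); lines are group means and each panel has its own scale. The ratio of Stmn4 to Nes is separate between the genotypes (means -3.22 and -4.96), while the ratios with Nefm are spread over the Yaf2KO libraries. In Yaf2KO 1 scaled Stmn4 is inside its wild-type range and scaled Nes is below its own.

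Within a genotype, the genes differed in how much they varied. The standard deviation of log2 scaled values over the Yaf2KO libraries was 2.15 for Nefm, the 12th largest of 376 tested genes, 1.27 for Stmn4 and 0.92 for Nes, against a median of 0.67 over all tested genes. Over the wild-type libraries it was 0.80 for Nefm, 0.82 for Stmn4 and 0.30 for Nes, against a median of 0.43. Nes was thus steadier than the median gene in wild type and more variable than it in Yaf2KO.

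Over the 6 libraries, the tested genes most like Nes in scaled log2 values were Col1a1 (Pearson r = 0.99), which encodes a collagen of fibroblasts, Tagln (0.95), an actin-binding protein gene of smooth muscle and fibroblasts, and Mall (0.95), a gene of the MAL membrane protein family. The libraries are the same for all genes and were scaled together, and the values carry no test. Col1a1 had 290, 1487 and 742 counts in Yaf2KO 1, 2 and 3, against 252, 285 and 210 in wild type 1, 2 and 3, and was, like Nes, low in Yaf2KO 1 relative to the list. Without Yaf2KO 1, r with Nes was 0.91 for Col1a1, 0.81 for Tagln and 0.88 for Mall.

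Col1a1 and Tagln belong to the list of markers of the feeder fibroblasts on which the cells grew. Of its 36 symbols 7 were listed, and their summed level was 9300, 49289 and 30839 CPM in Yaf2KO 1, 2 and 3, against 29548, 28199 and 22849 CPM in wild type 1, 2 and 3. Nes was likewise lowest in Yaf2KO 1 and highest in Yaf2KO 2. However, the sum includes Col1a1 and Tagln, which were named above for their likeness to Nes. Tagln alone had 5135, 27976 and 18303 CPM in Yaf2KO 1, 2 and 3. In wild type 1, 2 and 3 it had 17908, 15532 and 11259 CPM. The likeness of the sum to Nes is therefore partly built in. Of the 5 feeder genes tested 0 were called (median log2 fold change 0.20, 4 above 0). Over all tested genes 0.798% were called and 47.9% were above 0, so a list of this size is not informative on calls. Every tested feeder gene was lowest in Yaf2KO 1, as Nes was, but not all of them followed Nes elsewhere. Myl9, a myosin light chain gene, had 1846, 3491 and 2752 CPM in Yaf2KO 1, 2 and 3, against 3656, 2917 and 5774 CPM in wild type 1, 2 and 3. It was highest in wild type 3, where Nes was lowest among the wild-type libraries. The smooth muscle actin gene Acta2 had 713, 8919 and 1696 CPM in Yaf2KO 1, 2 and 3, against 2865, 3365 and 1256 CPM in wild type 1, 2 and 3. Like Nes, Acta2 was highest in Yaf2KO 2 and lay inside the wild-type range in Yaf2KO 3. Postn and Prrx1 had at most 12 reads in any library. In bulk RNA fewer cells of a type and less RNA per cell cannot be told apart, and the part of feeder cells in the Nes values was not tested.

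The genes most like Nefm were Ptprcap (r = 0.95), which encodes a protein associated with the phosphatase CD45 of leukocytes, the cyclin gene Ccnd2 (0.92) and Mras (0.91), which encodes a small GTPase of the RAS family. Ptprcap had 126, 53 and 11 counts in Yaf2KO 1, 2 and 3, against 8, 5 and 4 in wild type 1, 2 and 3, and was, like Nefm, lowest in Yaf2KO 3 within its genotype. Its log2 fold change was 1.08 (SE 0.63), and it was not called. Neither were Ccnd2 and Mras, at 0.65 (SE 0.56) and 0.45 (SE 0.50).

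The genes most like Stmn4 were Prtg (r = 0.97), which encodes protogenin, a receptor of the immunoglobulin superfamily in the early embryo, the transcription factor gene Wt1 (0.94) of kidney and gonad development, and the growth factor gene Fgf8 (0.94) of gastrulation and early patterning. Prtg had 1516, 1435 and 913 counts in Yaf2KO 1, 2 and 3, against 211, 214 and 160 in wild type 1, 2 and 3, and after scaling it was highest in Yaf2KO 3, as Stmn4 was. None of them was called, with log2 fold changes of 0.78 (SE 0.39) for Prtg, 0.68 (SE 0.49) for Wt1 and 0.86 (SE 0.67) for Fgf8. Among the 3 genes themselves, r was 0.52 between Nes and Stmn4, 0.03 between Nefm and Stmn4 and -0.34 between Nes and Nefm. Without Yaf2KO 1, r was 0.75 between Nes and Stmn4, 0.23 between Nefm and Stmn4 and 0.53 between Nes and Nefm. Without Yaf2KO 3, it was 0.47 between Nes and Stmn4, 0.59 between Nefm and Stmn4 and -0.25 between Nes and Nefm.

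**Figure D5:**
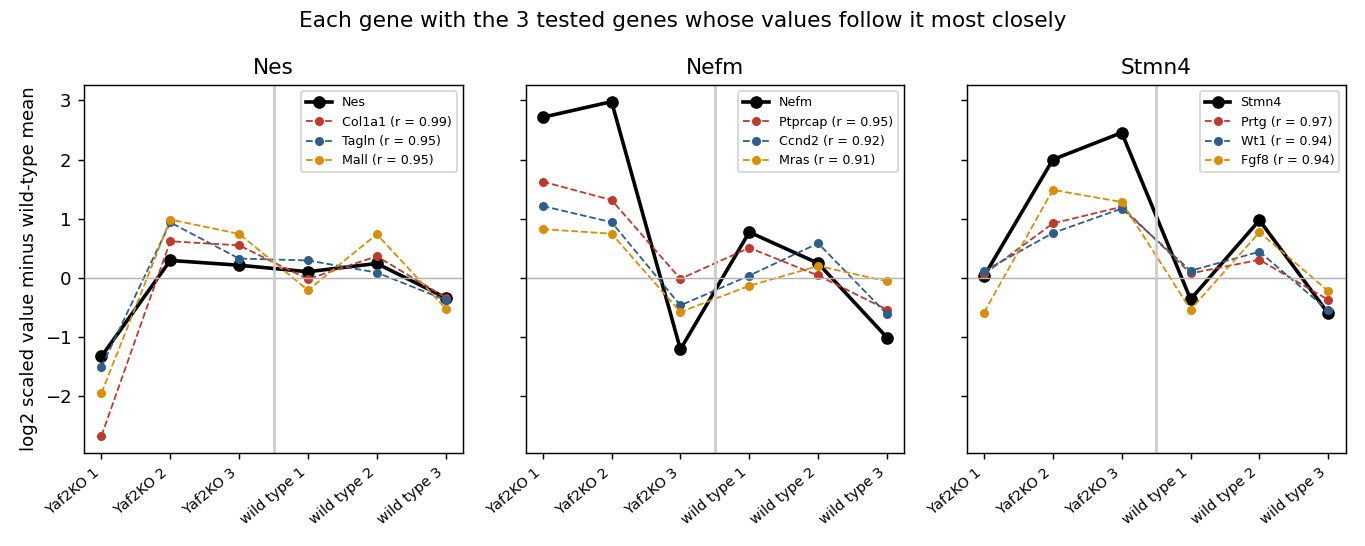
Log2 scaled value minus the wild-type mean (vertical) in each library for Nes, Nefm and Stmn4 (black) and the 3 tested genes with the highest Pearson r to each; lines only join the points of 1 gene. Nes lies below 0 in Yaf2KO 1 together with Col1a1, Nefm in Yaf2KO 3 together with Ccnd2 and Mras, and Stmn4 is near 0 in Yaf2KO 1 with Prtg.

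Few symbols of the neural lists used here were among the listed genes, and neural genes outside those lists were not followed. Of 27 neural progenitor symbols 3 were listed and 1 was tested, Pax6, a transcription factor of the eye and forebrain, with 273, 430 and 105 counts in Yaf2KO 1, 2 and 3, against 35, 47 and 28 in wild type 1, 2 and 3 (log2 fold change 0.81 with an SE of 0.55; adjusted p = 0.95 by edgeR). Pax7, which patterns the dorsal neural tube, had 5, 7 and 1 counts in Yaf2KO libraries against 0, 3 and 3 in wild-type libraries. Hes5, a Notch target that defines dividing progenitors, had 0 counts in all 3 Yaf2KO libraries and 1, 0 and 0 in wild type.

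Of 29 neurogenic transcription factor symbols 4 were listed and 1 was tested. This was Ebf1, with 106, 58 and 81 counts in Yaf2KO 1, 2 and 3, against 10, 10 and 13 in wild type 1, 2 and 3 (log2 fold change 1.04 with an SE of 0.58; adjusted p = 0.95 by edgeR). Neurog3, a factor that commits cells to endocrine and some neural fates, had 43, 18 and 10 counts in Yaf2KO libraries and 6, 3 and 7 in wild-type libraries. Myt1l, a neuronal repressor of other fates, had 27, 14 and 6 counts in Yaf2KO libraries and 7, 2 and 6 in wild-type libraries, and Lhx1 had 3, 24 and 7 in Yaf2KO libraries and 4, 1 and 0 in wild-type libraries. After scaling, Ebf1 had 218, 229 and 611 CPM in Yaf2KO 1, 2 and 3, against 149, 173 and 188 CPM in wild type 1, 2 and 3. Its groups did not overlap, as in 6.12% of tested genes. Lhx1 was above every wild-type library in Yaf2KO 2 alone (94.7 CPM, against 59.7, 17.3 and 0 CPM in wild type 1, 2 and 3). Neurog3 and Myt1l were not above every wild-type library in any Yaf2KO library, unlike Nefm in Yaf2KO 1 and 2. Neurog3 had 88.6, 71.0 and 75.4 CPM in Yaf2KO 1, 2 and 3, against 89.5, 51.8 and 101 CPM in wild type 1, 2 and 3. Myt1l had 55.6, 55.2 and 45.2 CPM in Yaf2KO 1, 2 and 3, against 104, 34.5 and 86.6 CPM in wild type 1, 2 and 3.

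Of the 39 further symbols for the neuronal cytoskeleton and growth, which include the other neurofilament, stathmin and neuronal tubulin genes, 0 are among the rows used here, and the same holds for 18 glial and neural crest symbols. For the neuronal cytoskeleton, the comparison here thus rests on Nefm and Stmn4, and the listed genes were not searched beyond these symbols. Of 22 other intermediate filament symbols 1 was listed, Krt14, a keratin gene of basal epithelium, with 20, 127 and 65 counts in Yaf2KO 1, 2 and 3, against 21, 9 and 15 in wild type 1, 2 and 3 (log2 fold change 0.57 with an SE of 0.81; adjusted p = 0.95 by edgeR). Like Nes, Krt14 was highest in Yaf2KO 2 in raw counts.

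Muscle genes were followed because muscle precursors also make nestin. Of 24 symbols 5 were listed and 2 tested, with 0 called, where 0.798% of all tested genes were, and a median log2 fold change of -0.19. The summed level of the list was 1189, 4166 and 1048 CPM in Yaf2KO 1, 2 and 3. In wild type 1, 2 and 3 it was 3164, 2416 and 996 CPM. The skeletal actin gene Acta1 had 486, 964 and 123 counts in Yaf2KO 1, 2 and 3, against 200, 131 and 54 in wild type 1, 2 and 3. The cardiac actin gene Actc1, which had too few reads to be tested, had 53, 51 and 9 counts in Yaf2KO 1, 2 and 3, against 3, 1 and 3 in wild type 1, 2 and 3. Its raw counts did not overlap, as in 27.4% of all listed genes. Its scaled values, 109, 201 and 67.8 CPM in Yaf2KO libraries against 44.8, 17.3 and 43.3 CPM in wild-type libraries, did not overlap either, unlike those of Nes. Of the tested genes, which Actc1 is not among, 6.12% were separated in this way after scaling. The wild-type values of Actc1 rest on 1 to 3 reads. Naive pluripotency genes had 9 of 31 symbols listed and tested, with 0 called and 4 above 0. Over all tested genes 0.798% were called and 47.9% were above 0. The median log2 fold change of the list was -0.09, close to that of Nes and to the median of -0.03 over all tested genes. Klf4 departed from that median, at 1.61 (SE 0.45, unadjusted p = 0.00471, adjusted p = 0.177 by edgeR). It was the 1 gene of the list with every Yaf2KO library above every wild-type library after scaling.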

How the data were processed

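Poly-A selected RNA was sequenced from 3 Yaf2KO and 3 wild-type libraries, grouped and numbered by their titles. The deposited files hold raw read counts per gene for 1653 listed genes, per the file headers. Per the submitters' processing notes, the build was mm10 and the tools were HTSeq 0.6.0, TopHat2 2.0.12 and Cufflinks 2.2.1, with no role stated for any; strand setting, library totals and the choice of listed genes are not given in the sources used here. No label says that replicates are separate cultures, so p-values measure the spread between these libraries, which may be technical. All library pairs differed beyond counting noise (lowest chi-square divided by its degrees of freedom, 5.01).

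The main fit was edgeR 4.0.16 (R 4.3.3) quasi-likelihood with TMM factors, filterByExpr, the sum of all listed genes as library size and Benjamini-Hochberg adjustment over all 376 tested genes, threshold 0.05; the code was tested on simulated data. TMM factors ran from 0.923 to 1.08. CPM is relative to the scaled listed counts, not to the library. Standard errors were derived from that fit, as the absolute unshrunk log2 coefficient divided by the square root of its F statistic. The 95% intervals use these errors and are centred on the reported log2 fold change. Ratios within a library added 0.5 to each count and were tested by exact permutation (scipy 1.17.1), with adjustment over 3 ratios. Poisson and Clopper-Pearson intervals cover counting error only. Positions and exon lengths came from GENCODE vM21 (GRCm38, the mm10 assembly). Likeness was Pearson's r of log2 CPM with a prior count of 2.

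The members and gene lists were chosen with earlier results of these data known. The text names Nes, Nefm and Stmn4, the 3 most similar tested genes for each, up to 4 listed members per list with the most reads, and called genes. Postn, Prrx1 and Klf4 were named after their values were seen. The alternatives tried were each library left out, no low-count filter, a block for replicate number, equal depth, upper-quartile factors, size factors of DESeq2 1.42.0, the plain listed sum, limma-voom (limma 3.58.1), the Wald test of DESeq2 and other pseudocounts; library sizes recomputed after the filter were added after the data were seen. Other steps used Python 3.11.15 with numpy 2.4.6, pandas 2.3.3 and, for plots, matplotlib 3.10.9.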

Additional observations from a re-analysis of the deposited data

How the results depend on the processing

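Nefm and Stmn4 had a positive log2 fold change in every alternative run, and Nes was negative in all but 4. With all libraries taken as equally deep, Nes reversed to 1.75, Nefm came to 4.57 and Stmn4 to 3.40, all called by edgeR, as were 314 of 415 genes (75.7%); by construction this keeps the median shift of 2.16 log2 units. Without a low-count filter Nes reversed to 0.14, Nefm was called at 2.47, and 15 genes were called of 1638 tested. With library sizes recomputed after the filter, the values were -0.02 for Nes, 2.24 for Nefm and 1.74 for Stmn4. The count of called genes was 10 with the Wald test of DESeq2, which left 2 adjusted p-values as NA, and 0 with limma-voom (unadjusted p under 0.05 for 14).

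With 1 library left out, called genes numbered 0 to 11, with 0 without wild type 1, 2 or 3, where 17, 16 and 21 genes had an unadjusted p under 0.05 by edgeR. Log2 fold changes ran from -0.40 to 0.22 for Nes (reversed to 0.22 without Yaf2KO 1 and to 0.11 without wild type 2), 1.66 to 2.69 for Nefm and 1.18 to 2.40 for Stmn4. Ratio differences ran from 0.57 to 3.24 for Nefm to Nes, 1.50 to 2.09 for Stmn4 to Nes and -1.37 to 1.74 for Nefm to Stmn4, the last reversed to 1.74 without Yaf2KO 3 and to 0.48 without wild type 1. The cause was not tested for these differences. Other pseudocounts left each ratio difference on the same side of 0.

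With the replicate number as a block there were 0 calls (18 at an unadjusted p under 0.05 by edgeR), with Nes at -0.27, Nefm at 1.75 and Stmn4 at 1.46. Paired by number, the ratio differences of 1.68, 1.74 and -0.05 had exact permutation p of 0.5, 0.25 and 1.0, where 3 pairs cannot go below 0.25. The numbers are only shared: deviations of same-numbered libraries correlated across genes at 0.04, 0.18 and 0.17. Depth limits Nefm most, with 3 to 10 reads in wild type.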
